A study of Mus musculus with 4 samples.

Results

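The 10 genes described here encode the TEAD transcription factors and the core effectors of the Hippo pathway in the mouse: Tead1, Tead2, Tead3 and Tead4, the co-activators Yap1 and Wwtr1, the co-repressor Vgll4, the kinases Lats1 and Lats2 and the scaffold Sav1. They were chosen by name as a pathway, with earlier results of these data known. A peak of open chromatin was counted for a gene where it touched the gene body or lay within 10 kb of one of the gene's transcription start sites (TSSs) in the GENCODE M21 annotation of the mm10 genome. By this rule 32 of the 25745 peaks that were higher in Smyd1-KO hearts belonged to the 10 members, and 0 of the 106 peaks that were higher in wild-type (WT) hearts did.

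In the Hippo pathway, the upstream kinases STK3 and STK4, held by the scaffold SAV1, activate LATS1 and LATS2. The LATS kinases phosphorylate YAP1 and TAZ (the product of Wwtr1), which keeps them out of the nucleus. In the nucleus, YAP1 and TAZ bind TEAD factors on DNA and activate genes of growth and cytoskeletal organisation, while VGLL4 competes with them for TEAD. In the embryonic heart the pathway is known for restraining the proliferation of cardiomyocytes.

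ATAC-seq, in which the Tn5 transposase cuts and tags open chromatin, was carried out on hearts at embryonic day 9.5 (E9.5) that were WT or carried no functional copy of Smyd1 (Smyd1-KO, homozygous for a conventional null allele). SMYD1 is a muscle-restricted histone methyltransferase, and the question of the comparison is how its absence changes chromatin accessibility. Each genotype had 2 libraries, each made from 4 pooled hearts of either sex. The null allele is present in every cell of the embryo, and whole hearts were dissociated, so that myocardium, endocardium and other cell types were measured together. A peak with more tags can reflect more nuclei of one cell type or more open chromatin per nucleus, and these cannot be told apart.

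The deposited lists hold peaks that differed at least 2-fold between genotypes after the libraries of each genotype had been pooled. The value of a peak is its score, which the authors derived from the pooled tags of the genotype where the peak was higher. Scores of the Smyd1-KO list come in steps of 0.5 and 50.1% of them end in 0.5, so they are not plain counts, and the averaging or scaling behind them is not given in the sources used here. They are written as tags below. The score has no replicate error, the depth of each library is unknown from the lists, and no test between genotypes was possible, so all values below are descriptions. Open chromatin that differed by less than 2-fold is not in the lists, and a place without a listed peak may still be open in both genotypes. The targeted gene, Smyd1, had 2 Smyd1-KO-enriched peaks, 0 of them within 1 kb of its TSSs, and 0 WT-enriched peaks. The tags in it do not show whether the gene was disrupted.

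The sequences on which the account of the TEAD genes turns came from the promoters of Tead1, Tead3 and Tead4. The string GGAATG, read as CATTCC on the other strand, is the core of the site bound by TEAD factors. It occurred more than once in the promoter peak of each of these 3 genes, always as CATTCC on the strand of the gene. The stretches are given 5′ to 3′ on the gene strand from the mm10 sequence, with each CATTCC in capitals.
Tead1 peak 1, chr7:112679337-112679366, plus strand: tcatttCATTCCtgtcctCATTCCgcacat
Tead3 peak 1, chr17:28350702-28350730, minus strand: ccgggctCATTCCgtaCATTCCggccatc
Tead4 peak 2, chr6:128300456-128300484, minus strand: tCATTCCagcgccCATTCCgtgCATTCCt

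The starts of neighbouring strings were 12 bp apart in Tead1, 9 bp apart in Tead3, and 12 and 9 bp apart in Tead4. In Tead1 the first string began 14 bp before one of the gene's annotated TSSs. In Tead3 it began 12 bp before a TSS, and in Tead4 it began 255 bp after one. These distances are to the nearest own TSS. In all 3 genes the strings lay inside the gene body, downstream of the annotated TSS at its 5′ end. Of the 12239 Smyd1-KO-enriched peaks within 1 kb of any TSS, 40 (0.327%) held GGAATG at least 2 times on either strand. Of these, 8 (0.0654% of 12239) held neighbouring strings on the same strand at a step of 9 or 12 bp, and 3 of the 8 were the promoter peaks of Tead1, Tead3 and Tead4. The step was read from the member peaks themselves, so the 3 members were bound to be among the 8. The other 5 were nearest to Erc2, Igf2bp1, Pelo, Pkp4 and Snx8. Of the 13506 peaks farther from any TSS, 208 (1.54%) held GGAATG at least 2 times and 20 (0.148%) held it at such a step. Of the 17 member peaks among them, 0 did either. Among 32851 RefSeq promoter windows of GRCm38.p6, which run from 250 bases before to 50 bases after a gene's start, 447 (1.36%) held GGAATG at least 2 times and 10 (0.0304%) held it at such a step. These windows are longer than the peaks, and they include none of Tead1 or Tead4. A match describes the letters of the sequence and does not show that a TEAD factor is bound there.

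All 10 members had a Smyd1-KO-enriched peak, and in all 10 a peak lay within 1 kb of one of the gene's own TSSs. Among 21938 protein-coding genes, 62.6% had such a peak by the same rule and 48.1% had one no farther than 1 kb from a TSS, against 10 of 10 here. Both shares rise with gene length, and 6 members are longer than 50 kb. Among protein-coding genes between 50 and 100 kb, 79.6% had a peak and 64.6% had one that close to a TSS. Between 100 and 250 kb the shares were 86.5% and 65.5%, and up to 50 kb, where the other 4 members lie, they were 56.4% and 43.1%. Only 0.155% of protein-coding genes had a WT-enriched peak, against which 0 of 10 members is no result. The nearest WT-enriched peak lay between 2.035 Mb (Tead2) and 39.02 Mb (Tead4) from a member. The peak covered an annotated own TSS in 6 members, namely Tead1, Tead3, Yap1, Wwtr1, Vgll4 and Lats2. In Tead2, Tead4, Lats1 and Sav1 it lay beside one.

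**Figure D1:**
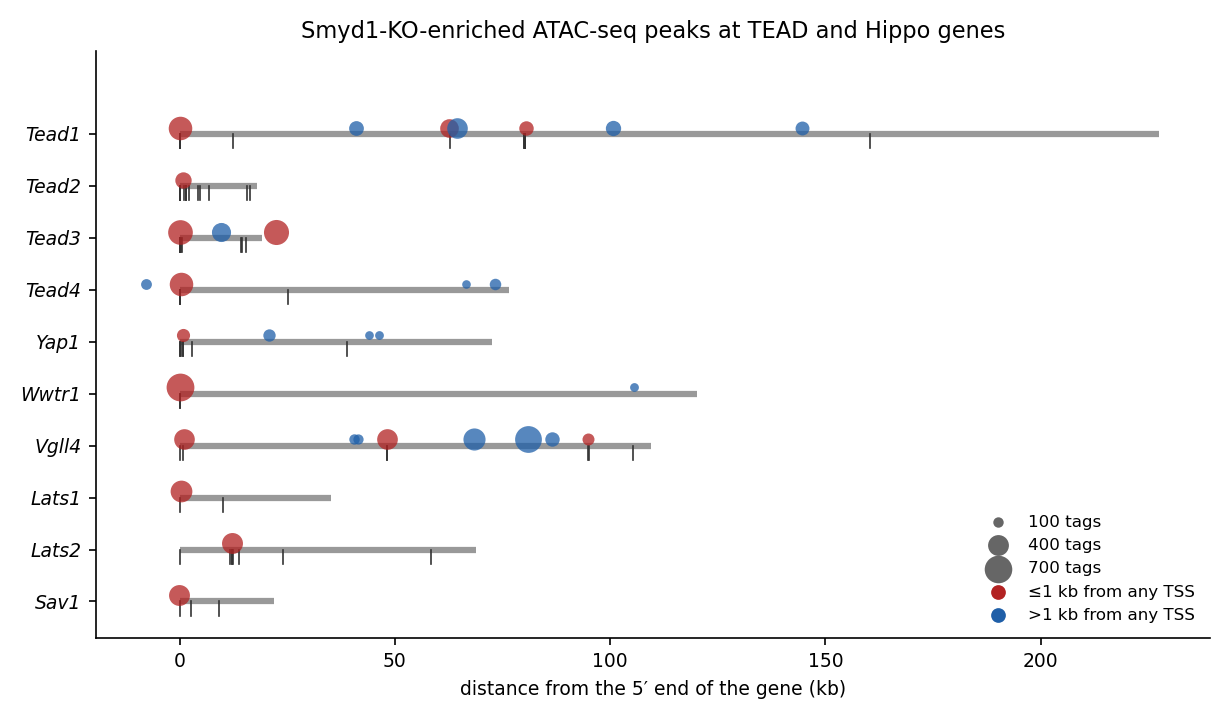
Smyd1-KO-enriched ATAC-seq peaks (circles, area in proportion to the score in pooled tags) at the 10 genes, plotted by distance in kb from the gene's 5′ end in the direction of transcription. Grey bars are gene bodies, black ticks are annotated TSSs, red circles lie within 1 kb of any TSS and blue circles farther away. Every gene has a red circle, and Tead1 and Vgll4 hold 15 of the 32 peaks.

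The number of peaks per member was uneven. Vgll4 had 8, Tead1 had 7, Tead4 and Yap1 had 4 each, Tead3 had 3, Wwtr1 had 2, and Tead2, Lats1, Lats2 and Sav1 had 1 each. The median was 2.5 over the members and 1 over all protein-coding genes. At least 7 peaks were found in 188 of 21938 protein-coding genes (0.857%), and Tead1 and Vgll4 were among them. Long genes collect more peaks, and the members were long, with a median of 70662.5 bp against 17425 bp. Among the 1755 protein-coding genes between 100 and 250 kb long, which include Tead1, Wwtr1 and Vgll4, the median was 2 peaks, and 2.91% had at least 7. Wwtr1, at 120262 bp, sat at that median with 2 peaks. Lats2, at 68727 bp, had as many peaks as the median gene between 50 and 100 kb, which was 1. Tead4, at 76536 bp, and Yap1, at 72598 bp, lie in the same length band with 4 peaks each, and 5.8% of its genes had at least 4.

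**Figure D2:**
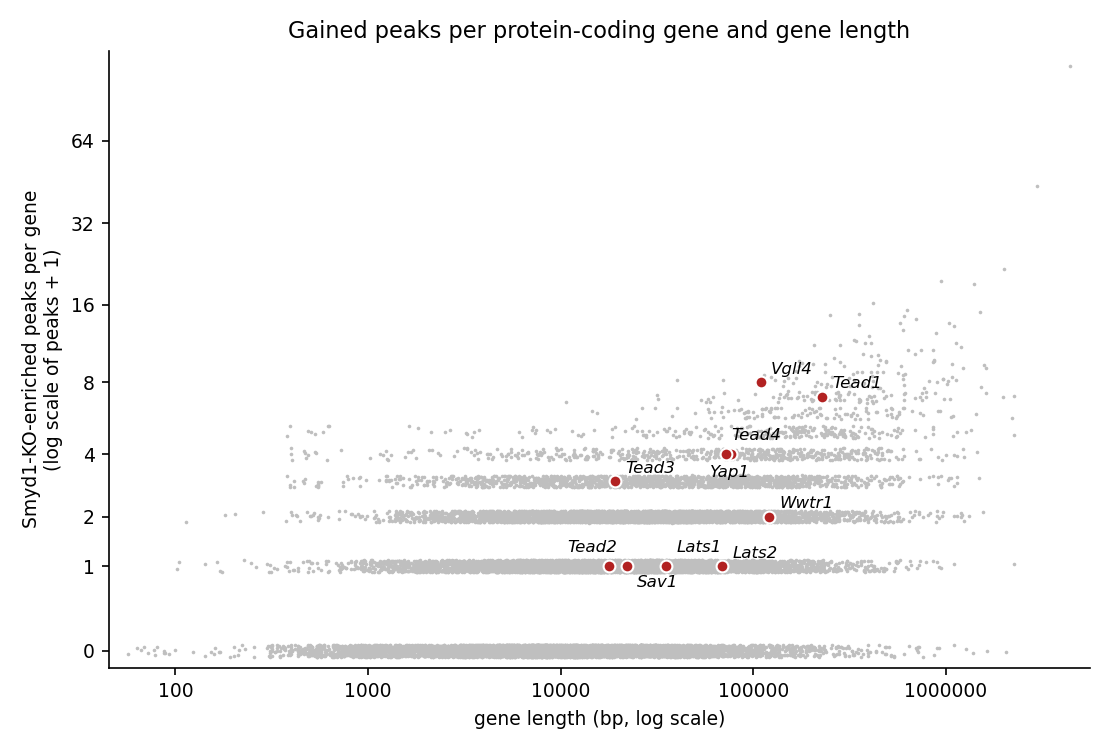
Smyd1-KO-enriched peaks per protein-coding gene (vertical axis, log scale of peaks + 1) by gene length in bp (log scale), with all 21938 genes in grey, spread a little in height to separate points, and the 10 members in red. Vgll4 with 8 peaks and Tead1 with 7 lie above most genes of their length, and the members with 1 peak lie in the densest band.

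Of the 32 peaks, 15 (46.9%) lay within 1 kb of a TSS of any gene and 17 lay farther away. The share in the whole list was 47.5%. The 15 promoter-proximal member peaks had a median score of 402.5, with quartiles of 283.5 and 510, and the 12239 such peaks of the list had the same median of 402.5. The 17 distal member peaks had a median of 140.5, with quartiles of 96.5 and 215.5, and the 13506 distal peaks of the list had a median of 90.5, with quartiles of 58.5 and 152.5. Of the 17 distal member peaks 13 were above the distal median of the list, whereas 7 of the 15 proximal ones were above the proximal median. Peaks of one gene share their libraries and are not replicates, and 9 of the 17 distal peaks came from Tead1 and Vgll4. All 9 were above the distal median of the list, the lowest with 96.5 tags. Member peaks were taken only from gene bodies or within 10 kb of a TSS. The distal peaks of the list also lie farther from genes, so the sets compared are unlike in place.

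**Figure D3:**
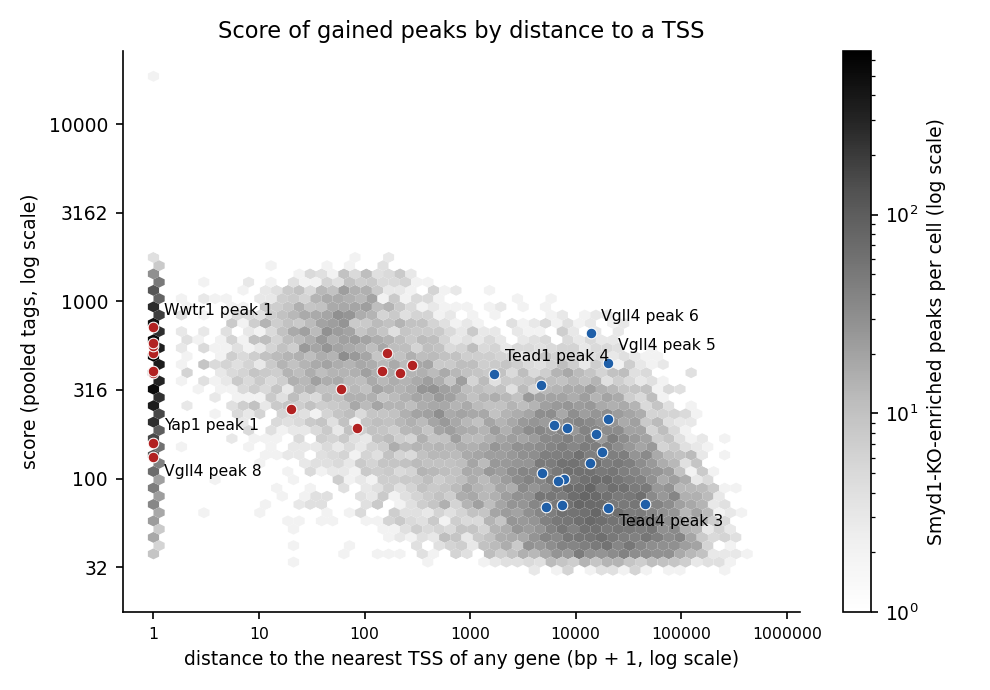
Score in pooled tags (log scale) of each Smyd1-KO-enriched peak by its distance in bp to the nearest TSS of any gene (log scale of bp + 1). Grey cells count all 25745 peaks, red points are the 15 member peaks within 1 kb of a TSS and blue points the 17 farther away. Vgll4 peaks 5 and 6 lie at the upper edge of the distal cloud, and Yap1 peak 1 is low among peaks at a TSS.

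Among the DNA-binding TEAD factors, Tead1 had the most peaks. Tead1 is the family member best known from heart muscle, where it acts on contractile genes. The gene lies at chr7:112679318-112906807 on the plus strand and spans 227490 bp. Its strongest peak, peak 1, had 511 tags at chr7:112679299-112679447 and covered the TSS at the 5′ end of the gene. The TSS of 2310014F06Rik, a lncRNA that shares this promoter region, lay 611 bp away. Among the promoter peaks of protein-coding genes, 511 was at percentile 55.7, near the middle.

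A pair of further Tead1 peaks lay near annotated internal TSSs. Peak 3 had 320.5 tags at chr7:112741838-112741986 and lay 59 bp from the TSS of a protein-coding transcript. Peak 5 had 193 tags at chr7:112759629-112759777, in a coding exon and 83 bp from the TSS of a transcript annotated with a retained intron. The TSSs of Tead1 formed 5 clusters, of which 3 had a peak.

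The other 4 Tead1 peaks were intronic and more than 1 kb from any TSS. Peak 4, at chr7:112743736-112743884, was the strongest with 391 tags, which placed it at percentile 96.1 of the distal peaks of the list. Peak 6 had 215.5 tags (percentile 85.7), peak 2 had 201 tags (percentile 83.9) and peak 7 had 178.5 tags (percentile 80.2). All 4 were above the upper quartile of the distal peaks of the list, 152.5 tags. They are shown because they carry the distal signal of the gene, with matches to the TEAD string, to the AP-1 string TGANTCA or to the CTCF motif in capitals. The strand is that of the gene, and peak 4 held none of these matches.
Tead1 peak 2, chr7:112720232-112720380, plus strand: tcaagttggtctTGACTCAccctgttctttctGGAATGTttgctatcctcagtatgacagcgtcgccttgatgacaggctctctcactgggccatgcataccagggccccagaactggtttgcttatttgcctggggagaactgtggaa
Tead1 peak 4, chr7:112743736-112743884, plus strand: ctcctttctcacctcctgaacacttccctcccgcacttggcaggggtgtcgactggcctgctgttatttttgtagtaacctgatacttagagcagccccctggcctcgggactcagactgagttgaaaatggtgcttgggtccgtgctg
Tead1 peak 6, chr7:112779874-112780022, plus strand: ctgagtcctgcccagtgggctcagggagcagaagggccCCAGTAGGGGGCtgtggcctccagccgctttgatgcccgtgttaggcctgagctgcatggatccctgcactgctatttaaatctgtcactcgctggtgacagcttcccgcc
Tead1 peak 7, chr7:112823736-112823884, plus strand: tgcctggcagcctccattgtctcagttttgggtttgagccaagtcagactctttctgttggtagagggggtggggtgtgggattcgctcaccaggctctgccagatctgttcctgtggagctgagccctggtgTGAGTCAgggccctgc

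Peak 2 held the AP-1 string, here TGACTCA, and the TEAD string in its longer form, which on the other strand reads ACATTCC. The middles of these matches lay 59 bp and 39 bp before the centre of the peak. Measured in the same way, peak 6 held a CTCF match 30 bp before its centre, and peak 7 held an AP-1 string 62 bp after its centre. The AP-1 string was present in 5.81% of the distal peaks of the list, and the CTCF motif in 7.56%.

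Tead2, a TEAD factor known for its expression in early embryos, lies at chr7:45215753-45233644 on the plus strand. It had 1 peak, with 246.5 tags at chr7:45216506-45216654, in the 5′ UTR and 19 bp from the TSS of a protein-coding transcript. This was the lowest promoter score of the 4 TEAD genes, at percentile 16.7 of protein-coding genes with a promoter peak. The centre of this peak lay 827 bp after the 5′ end of the gene, and the peak did not cover an annotated Tead2 TSS. The GGAATG string occurred 4 times within 500 bp of the TSSs of Tead2, and 0 of these fell inside the peak. The TSSs of Tead2 formed 4 clusters, of which 1 had a peak, so a string near another cluster could not fall inside it. Of the 3 other TEAD genes, Tead1 had 5 strings near its TSSs with 3 inside a peak, Tead3 had 4 with 2 inside, and Tead4 had 3 with 3 inside. Among the 6 other members, Lats2 had 3 with 1 inside, and Vgll4 with 5, Sav1 with 4, and Yap1, Wwtr1 and Lats1 with 2 each had 0 inside. In all, 9 of 34 such strings (26.5%) lay inside a peak, against 3.64% over the 10561 protein-coding genes with a promoter peak, and the 9 came from 4 members. They include the repeated strings shown above, 2 in Tead1 peak 1, 2 in Tead3 peak 1 and 3 in Tead4 peak 2. Those repeats were picked after the peaks were seen, so this share restates them and is no separate result.

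Tead3, at chr17:28331671-28350817 on the minus strand, had 3 peaks. Peak 1 had 561 tags at chr17:28350664-28350812, just inside the 5′ end of the gene, and covered annotated TSSs there. Peak 2 had 336 tags at chr17:28341181-28341329, in an intron, and was at percentile 94.5 of distal peaks. Peak 3 had 578.5 tags at chr17:28328372-28328520, beyond the 3′ end of Tead3, and covered the TSS of the neighbouring gene Rpl10a, which encodes a ribosomal protein. It was assigned to Tead3 only because a Tead3 TSS lay 6895 bp away, and it is the 1 member peak that lay within 1 kb of a TSS but not of a TSS of its own gene.

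Tead4, best known for its part in the first lineage decision of the embryo, lies at chr6:128224288-128300823 on the minus strand. Its 4 peaks were led by peak 2, with 509.5 tags at chr6:128300429-128300577, in the 5′ UTR and 161 bp from a TSS. The other 3 peaks were distal and had lower scores, and the nearest TSS of each belonged to another annotated gene. Counting only peaks whose nearest TSS was an own one left 1 peak for Tead4. Peak 4, in the 3′ UTR, had 122 tags, peak 1, which lay 7641 bp upstream of the gene, had 108 tags, and peak 3, in an intron, had 68.5 tags, the lowest value of the 32. The first 2 of these were above the distal median of the list, 90.5 tags, and peak 3 was below it. The promoter peaks of Tead1, Tead3 and Tead4 thus lay close together at 511, 561 and 509.5 tags, and that of Tead2 had fewer.

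The co-activators Yap1 and Wwtr1 stood at opposite ends of the promoter scores. YAP1 and TAZ are related proteins that bind TEAD factors and have no DNA-binding domain of their own. Wwtr1, at chr3:57455649-57575910 on the minus strand, had the highest score of the 32 peaks, 711.5 tags at chr3:57575826-57575974, over its TSS (percentile 75.9 of protein-coding genes). Its only other peak was intronic, 105369 bp from the TSS, and had 71.5 tags. Yap1, at chr9:7931999-8004596 on the minus strand, had the lowest promoter score of the 10 members, 159 tags at chr9:8003699-8003847 (percentile 7.37). That peak did not cover the 5′ end of the gene but the TSS of a transcript annotated as processed, without a coding sequence. The 3 other Yap1 peaks were intronic, with 140.5 tags (peak 2, chr9:7983788-7983936), 71 tags (peak 4) and 69.5 tags (peak 3). The 7 distal peaks of Tead4, Yap1 and Wwtr1 ranged from 68.5 to 140.5 tags and included none as strong as the 4 of Tead1.

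For comparison, the promoter peaks of the co-activators are given on the gene strand; for Wwtr1 only the 64 bases upstream of the gene are shown. Neither held GGAATG or the SP/KLF string GGGCGG in the stretch shown, and no letters are in capitals.
Wwtr1 peak 1, chr3:57575911-57575974, minus strand: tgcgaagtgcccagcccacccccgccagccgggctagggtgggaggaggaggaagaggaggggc
Yap1 peak 1, chr9:8003699-8003847, minus strand: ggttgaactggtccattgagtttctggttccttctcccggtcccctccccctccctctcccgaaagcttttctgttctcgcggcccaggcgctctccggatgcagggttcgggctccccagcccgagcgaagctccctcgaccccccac

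Vgll4, which encodes a co-repressor that binds TEAD factors through its TDU domains, had the most peaks of the members. The gene lies at chr6:114860628-114969994 on the minus strand. Its strongest peak, peak 6, was intronic and had 661 tags at chr6:114889058-114889206. This was at percentile 99.1 of the distal peaks of the list, and Vgll4 was the only member whose strongest peak lay more than 1 kb from any TSS. Peak 5, also intronic, had 451 tags at chr6:114901471-114901619 (percentile 97.2), and peak 7 had 192 tags at chr6:114883322-114883470 (percentile 82.6). The neighbouring intronic peaks 2 and 3 had 100 and 96.5 tags.

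The 3 remaining Vgll4 peaks lay at or near annotated TSSs. Peak 1 had 392 tags at chr6:114968815-114968963, in the 5′ UTR and 217 bp from a TSS. Peak 4 had 394 tags at chr6:114921756-114921904 and covered the TSS of a protein-coding transcript inside the gene. Peak 8 had 132.5 tags and covered the TSS of a processed transcript. The upstream start and this internal start thus had nearly the same score. The TSSs of Vgll4 formed 4 clusters, of which 3 had a peak. The strongest distal peaks are shown with peak 3, which held the CTCF motif and the T-box string AGGTGT; capitals mark TEAD, CTCF and T-box matches.
Vgll4 peak 6, chr6:114889058-114889206, minus strand: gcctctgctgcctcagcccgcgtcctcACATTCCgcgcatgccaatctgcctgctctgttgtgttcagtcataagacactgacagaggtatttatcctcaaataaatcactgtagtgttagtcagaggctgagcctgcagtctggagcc
Vgll4 peak 5, chr6:114901471-114901619, minus strand: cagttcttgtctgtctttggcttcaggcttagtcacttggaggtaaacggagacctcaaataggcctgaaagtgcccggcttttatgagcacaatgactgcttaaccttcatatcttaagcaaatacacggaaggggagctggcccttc
Vgll4 peak 3, chr6:114928550-114928698, minus strand: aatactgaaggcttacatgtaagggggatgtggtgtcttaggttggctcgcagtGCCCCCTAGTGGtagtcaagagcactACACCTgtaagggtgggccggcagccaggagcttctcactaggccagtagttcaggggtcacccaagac

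The longer TEAD string ACATTCC in Vgll4 peak 6 lay toward its upstream end, with its middle 44 bp from the centre. Peak 5 held 0 of the 13 motifs searched.

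The kinases and the scaffold each had 1 peak, at a promoter, and their scores were nearly equal. Lats1, at chr10:7681214-7716460 on the plus strand, had 436 tags at chr10:7681497-7681645, in an intron 283 bp from the TSS at the 5′ end. A TSS of the divergent neighbour Pcmt1 lay 361 bp from this peak. Lats2, at chr14:57689662-57758388 on the minus strand, had 404.5 tags at chr14:57746052-57746200, over an internal TSS. The same peak also covered a TSS of the annotated gene Gm49361. This Lats2 peak held GGAATG once. Sav1, at chr12:69965012-69987002 on the minus strand, had 402.5 tags at chr12:69987147-69987295, 145 bp upstream of the gene. With no replicate error, the order of these 3 values carries no meaning. They were at percentiles 45.1 (Lats1), 40.0 (Lats2) and 39.8 (Sav1) of protein-coding genes with a promoter peak. The GC-rich upstream sequence of Sav1 held GGGCGG 3 times, with a pair overlapping, shown in capitals as CCGCCC on the gene strand.
Sav1 peak 1, chr12:69987147-69987295, minus strand: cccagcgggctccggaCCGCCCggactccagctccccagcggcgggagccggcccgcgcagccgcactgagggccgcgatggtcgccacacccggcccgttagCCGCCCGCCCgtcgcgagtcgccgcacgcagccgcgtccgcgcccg

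Over all members, the strongest peak within 1 kb of an own TSS had a median of 420.2 tags, and over the 10561 protein-coding genes with such a peak the median was 469.5. In descending order the scores were 711.5 (Wwtr1), 561 (Tead3), 511 (Tead1), 509.5 (Tead4), 436 (Lats1), 404.5 (Lats2), 402.5 (Sav1), 394 (Vgll4), 246.5 (Tead2) and 159 (Yap1). The 6 lowest of these lay below the median of protein-coding genes and the 4 highest above it.

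The member peaks were searched for 13 motifs on both strands. GGAATG was found in 7 of 32 member peaks (21.9%), and in 10.6% of all Smyd1-KO-enriched peaks. Within 1 kb of a TSS it was found in 5 of 15 (33.3%), against 5.65% of the list, and farther away in 2 of 17 (11.8%), against 15.04%. The 5 were the promoter peaks of Tead1, Tead3, Tead4 and Lats2 and Tead1 peak 5, in a coding exon near an annotated internal TSS. The 2 distal ones were Tead1 peak 2 and Vgll4 peak 6. The longer string ACATTCC, which contains the core, was in 4 of 32 (12.5%), against 3.84% of the list. These peaks come from a few genes, 3 of the 7 from Tead1, and the shares are descriptions.

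Strings of cardiac transcription factors were searched as well. The GATA string AGATAA was found in 0 of 32, against 8.87% of the list, and the MEF2 string TATTTATA in 0 of 32, against 0.594%. The NKX2-5 string CACTTNA was found in 3 of 32 (9.38%), against 6.76%, and the T-box string in 1 of 32 (3.12%), against 5.50%. No match says only that these letters are not in the window. The MEIS string TGACAG was in 4 of the 17 distal peaks (23.5%), against 20.8%. AP-1 and CTCF matches were each in 2 of the 17. The E-box CACGTG, the ETS string CCGGAA and the NF-Y string CCAAT were each in 3 of the 32, against 3.24%, 8.38% and 19.6%. In Tead3 peak 1 the ETS match overlapped a TEAD string. GGGCGG was in 6 of the 15 proximal member peaks (40.0%), against 51.6%.

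**Figure D4:**
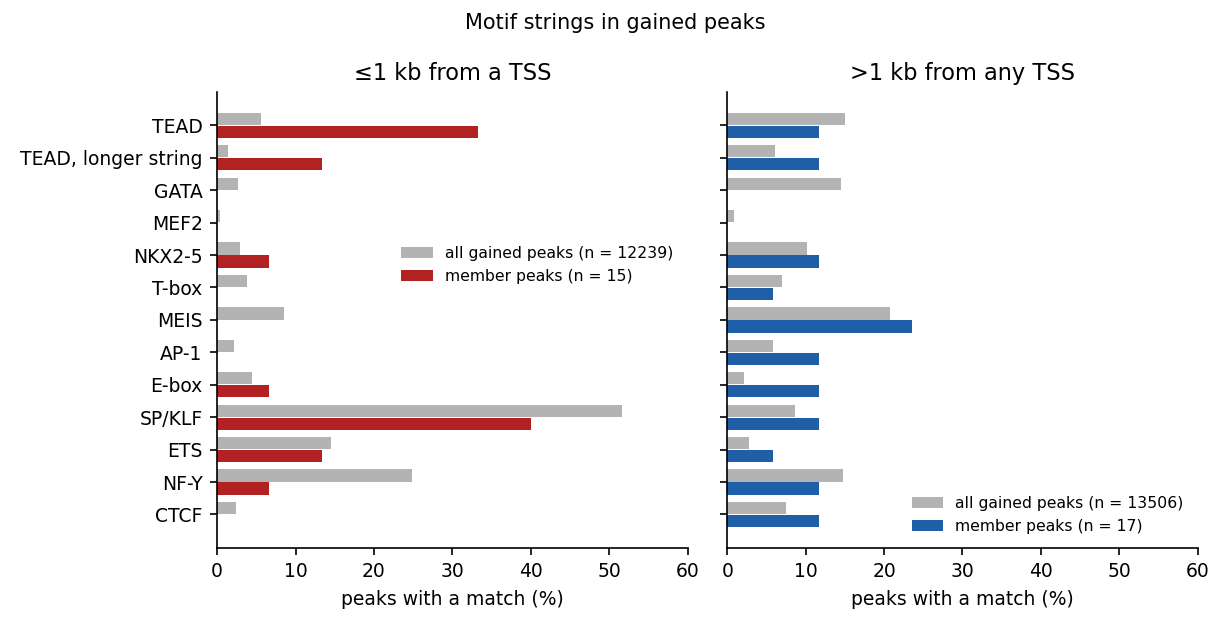
Share of peaks in percent that hold each motif string, for all Smyd1-KO-enriched peaks (grey) and member peaks (coloured), within 1 kb of a TSS on the left and farther away on the right. The TEAD string is at 33.3% of 15 proximal member peaks against 5.65% of the list, while the distal shares are 11.8% and 15.04%, and no member peak holds the GATA or MEF2 string.

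In base composition the member peaks were close to the list. Proximal member peaks had a median GC content of 69.8%, against 65.8%, and distal ones 52.3%, equal to the list's median of 52.3%. Bases that the genome sequence marks as repeats occurred in 12 of 32 member peaks (37.5%), against 35.8% of the list. RefSeq promoter windows were available for 8 members, with 12 windows in all. A peak overlapped a window of 4 of the 8, namely Tead3, Wwtr1, Lats2 and Sav1, and 28.5% of the 27025 genes with a window had one that overlapped a peak. GGAATG was in a window of 6 of the 8 members, and of 16.6% of the 27025 genes. Windows of 1 gene can overlap, as those of Wwtr1 and those of Tead3 did, so that windows are not separate sequences.

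The rule drew its line at 10 kb from a TSS outside the gene body. Just inside it was Tead4 peak 1, at 7641 bp and with 108 tags. Just outside it was a peak of 291.5 tags at 11030 bp from Tead2, which lay 169 bp from a TSS of Ccdc155.

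The rest of the pathway was described with 26 other Hippo genes. A Smyd1-KO-enriched peak was found in 24 of them (92.3%), and 23 (88.5%) had one within 1 kb of a TSS, with 51 peaks in all and a median of 2 per gene. Over all protein-coding genes the shares were 62.6% and 48.1% and the median was 1. None had a WT-enriched peak, against 0.155% of all protein-coding genes. The median of their strongest promoter peak was 644 tags. Wwc2, an upstream adaptor, had 5 peaks, Amotl1, which holds YAP1 outside the nucleus, had 4, and Ajuba, a LIM protein that restrains LATS, was 1 of 7 genes with 3 and was named by alphabetical order among them. The highest scores were 1037.5 tags at Stk3, which encodes a kinase that activates LATS, 1029.5 at Wwc2 and 1007.5 at Nf2, an upstream activator of the pathway. Fat4, an atypical cadherin, and Vgll2, a TEAD cofactor of muscle, had no listed peak by the same rule.

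The list of 21 genes known as targets of YAP/TAZ and TEAD shares Amotl2 and Ptpn14 with the list above. Of these 21, 18 (85.7%) had a Smyd1-KO-enriched peak and 13 (61.9%) had one within 1 kb, with 42 peaks in all, a median of 2 per gene and none WT-enriched, against the same 62.6%, 48.1%, 1 and 0.155% over all protein-coding genes. For both lists the shares are descriptions that were not matched on gene length. Their strongest promoter peaks had a median of 443 tags. Rbms3 had 6 peaks, Asap1 had 5 and Crim1 had 4, and these are long genes. The highest scores were 1198 tags at Gadd45a, a stress-response gene, 841.5 at Ptpn14 and 810.5 at Amotl2, both of which encode proteins that bind YAP1. The classical target Ctgf (Ccn2) had 1 peak of 570.5 tags over its TSS, and Ankrd1, a target expressed in heart muscle, had 2. By the rule of gene body or 10 kb, no listed peak belonged to Cyr61 (Ccn1), Igfbp3 or Nt5e. A rule with a wider window can give another answer, since the nearest Smyd1-KO-enriched peak lay 20.9 kb from a TSS of Igfbp3, 53.6 kb from Cyr61 and 83.2 kb from Nt5e. Ctgf and Ankrd1 were named after their values were seen.

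**Figure D5:**
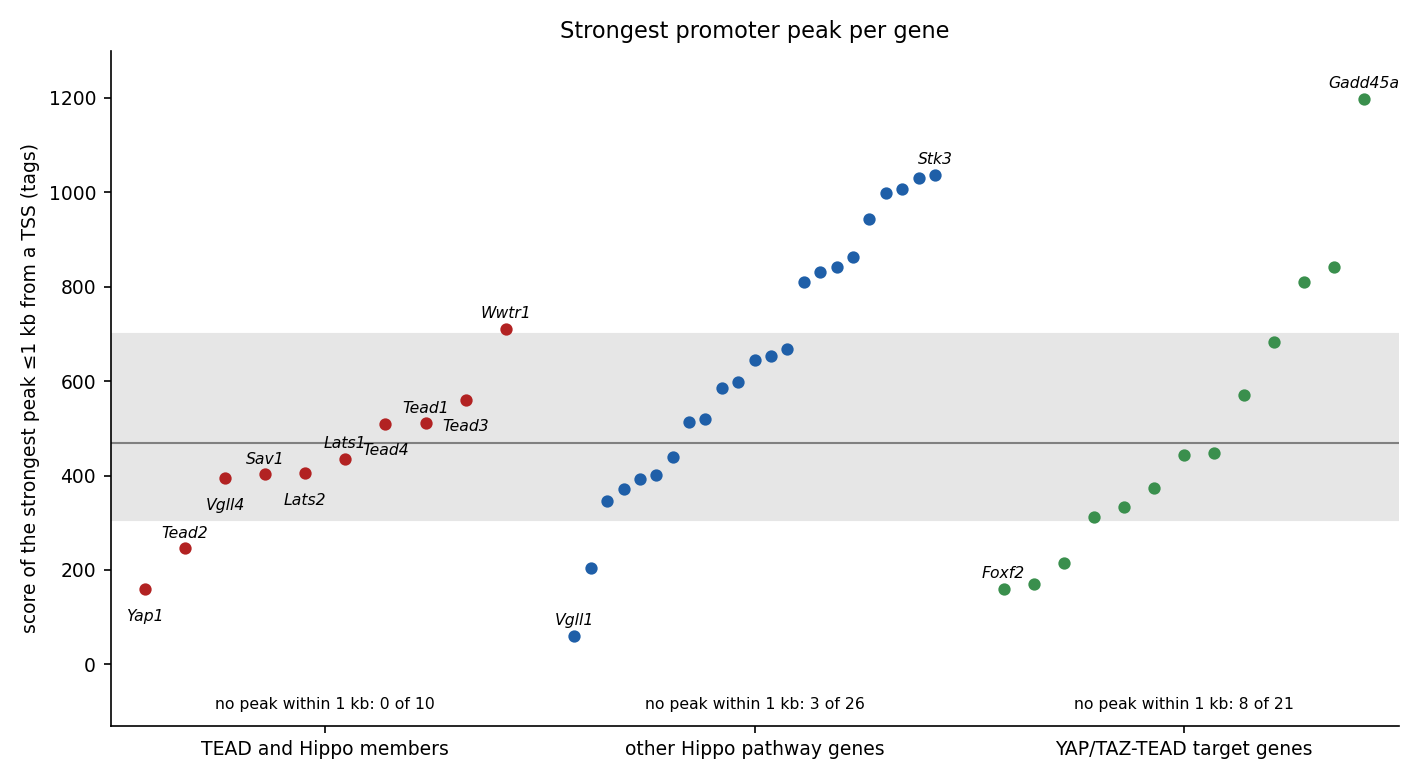
Score in pooled tags of the strongest promoter peak of each gene, that is, the strongest Smyd1-KO-enriched peak at most 1 kb from its TSSs, for the 10 members (red), 26 other Hippo genes (blue) and 21 target genes (green), ordered by score within each set. The grey line and band are the median (469.5 tags) and quartiles of 10561 protein-coding genes, and the members run from Yap1 at 159 to Wwtr1 at 711.5.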

How the data were processed

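Hearts at E9.5 were profiled by ATAC-seq in 4 libraries, 2 per genotype. The authors aligned reads to mm10 with BWA-MEM, pooled the libraries of a genotype, called peaks and differential peaks with HOMER and deposited 1 list per genotype. The deposited signal of each peak is a value derived from the pooled tags of the genotype where it was higher, in steps of 0.5 in the Smyd1-KO list. The averaging or scaling behind it is not given in the sources used here. The scores of the WT list have finer decimals and were not compared with those of the Smyd1-KO list. How duplicates and the Tn5 offset were handled is not given in the sources used here, and either could change which peaks are listed.

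Deposited starts were read as counting from 0. Genes and TSSs of all transcripts came from GENCODE M21, and sequence from GRCm38.p6, which matches mm10. Distance ran from the nearer edge of a peak. TSSs within 1 kb of each other formed 1 cluster. Scripts used Python 3.11.15 and numpy 2.4.6, and the assignment of peaks was tested on simulated data. Motifs were searched as fixed strings on both strands, with 1 degenerate motif for CTCF.

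Members and gene lists were chosen with earlier results of these data known. Named genes were all members and, in each list, the 3 with most peaks, the 3 with the highest score (ties by alphabetical order) and those without a peak. Distal peaks at or above the distal median or with GGAATG, and promoter stretches outside UTRs, could be printed, and those the text turns on are shown. The short TEAD repeats were added after the peaks were seen and outside this rule, and that of Tead4 comes from a peak in the 5′ UTR. Alternatives changed the window, TSS set, score minimum, overlap, motif and background genes.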

Additional observations from a re-analysis of the deposited data

How the results depend on the processing

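With peaks under the median score of the list left out, 20 of the 32 peaks stayed, and 9 members kept a peak within 1 kb of a TSS, Yap1 being lost. The other windows and counting rules gave between 23 peaks (TSS windows without gene bodies) and 46 (within 50 kb of a TSS), and all of them left 10 members with a promoter peak where that was counted. The share of member peaks with a TEAD string was 12.5% with ACATTCC and 11.8% in distal peaks, against 21.9% as reported. It was 31.2% with intervals widened by 100 bp on each side, where the list had 20.6%. Over all annotated genes the share with a peak was 39.7%, against 62.6% of protein-coding genes. Over the members and settings, 26 of 80 peak counts of single members differed from the count reported, and 13 of these did so by more than 1.5 times. The repeated TEAD strings were chosen after seeing the data. No paired analysis was possible because the libraries of a genotype were pooled in the lists and no result comes from a test, and for the same reason no replicate could be left out. Library depth is unknown from the lists, so weak peaks such as Tead4 peak 3 cannot be given a counting error for each library.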

Other observations

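Beside the promoter peaks of Tead1, Tead3 and Tead4, 5 Smyd1-KO-enriched peaks within 1 kb of a TSS held GGAATG strings on the same strand at a step of 9 bp, each with 2 strings. The peak at the TSS of Pkp4, which encodes a protein of cell junctions, had 547 tags, and that 20 bp from a TSS of Erc2, a gene of the presynaptic active zone, had 559.5 tags. The peak 6 bp from a TSS of Igf2bp1, an RNA-binding protein of embryonic tissues, had 377 tags. Those nearest to Pelo and Snx8 had 332.5 and 274.5 tags and lay 439 and 987 bp from a TSS. The pattern was noticed in the member peaks and then counted in the list, so it is a description, and whether TEAD factors bind at these promoters was not tested.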
